A study of Mus musculus with 8 samples.

Results

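Human chromosome 21 corresponds to parts of mouse chromosomes 16, 10 and 17, and the Dp16 mouse duplicates only the part on chromosome 16. The genes described here are the 47 listed mouse orthologs of human chromosome 21 genes that lie outside the duplication and keep 2 copies in Dp16 mice, 29 on chromosome 10 and 18 on chromosome 17. They were taken by name from a list made with earlier results of these data known, with no measured value in the rule, out of 54838 genes in the count tables, and 41 of them had enough reads to be tested among 19358 genes. Submandibular glands, salivary glands below the jaw, were taken from male mice and profiled by RNA sequencing in 8 libraries. The 4 Dp16 libraries came from B6.129S7-Dp(16Lipi-Zbtb21)1Yey/J mice, a model of Down syndrome that carries 3 copies of the chromosome 16 segment from Lipi to Zbtb21 in every cell. The 4 WT libraries came from C57BL/6J wild-type mice, which carry 2 copies throughout. The labels give C57BL/6J as the strain of both groups, no treatment, and no age. They do not say whether each library is a separate animal, so p-values measure the spread between these libraries, and they name the lines as purchased without saying whether the WT mice were littermates of the Dp16 mice.

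These 2-copy orthologs are triplicated in people with trisomy 21 but not in this mouse, so in Dp16 tissue any difference in their level arises without a difference in their own copy number. The chromosome 10 block runs from Prmt2 to Pdxk (GRCm38 chromosome 10, 76207222 to 78464975), and holds the collagen VI chains Col6a1 and Col6a2, the leukocyte integrin subunit Itgb2, the glial calcium-binding protein S100b and the protease inhibitor Cstb. The chromosome 17 block runs from Umodl1 to Rrp1b (chromosome 17, 30954640 to 32062865), and holds the trefoil factors Tff1, Tff2 and Tff3, the cAMP-inducible kinase Sik1, the splicing factor U2af1 and the transsulfuration enzyme Cbs. In the salivary gland, acinar cells secrete fluid and granular duct cells secrete growth factors and kallikreins. The chromosome 10 block includes genes known for secretory protein handling and for connective tissue, and both blocks include genes known from leukocytes. Libraries of whole glands do not show which gland cells express a member.

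Between 90790542 and 115729892 reads per library fell in genes. Levels are given as scaled CPM, the counts of a gene relative to all counts in genes after TMM scaling, and differences as log2 fold changes of Dp16 over WT from edgeR's quasi-likelihood test, called at a Benjamini-Hochberg adjusted p below 0.05 over all 19358 genes. The granular duct marker Egf stood at 15704 to 42405 CPM in Dp16 and 28304 to 61702 CPM in WT and the acinar marker Mucl2 at 210317 to 285176 CPM in Dp16 and 234361 to 333956 CPM in WT, though other markers of these cells, such as Dcpp1 and Nrtn, were low, while summed adipocyte markers reached at most 7.70 CPM in Dp16 and 9.62 CPM in WT. Reads overlapping no counted feature made up 19.8% ± 1.16 of a Dp16 library and 14.98% ± 0.965 of a WT library (SD, n = 4 each), a difference of 4.80 percentage points (exact permutation test, two-sided, p = 0.0286, the smallest the design allows). Of 10 granular duct markers tested, all 10 had a negative log2 fold change (median -0.52) and 1 was called, Klk1, which fell to 680 ± 64.4 CPM in Dp16, against 1105 ± 52.8 CPM in WT (edgeR adjusted p = 0.0358). Of 9 acinar markers tested, 8 were negative (median -0.27) and 0 were called by edgeR. Of 10 endothelial markers 9 were positive (median 0.40) and 0 were called by edgeR. DESeq2 called 2 granular duct and 3 acinar markers lower, beside 4.33% of all genes, and 3 endothelial markers higher, beside 5.82%. The part of the no-feature reads and of these cell types in the differences below was not tested, and in whole glands fewer cells of a type and less RNA per cell cannot be told apart. Over all genes tested, 121 were called, and the count was 0 without WT replicate 2 or without Dp16 replicate 1 and 446 without Dp16 replicate 2, so every edgeR call named below is lost without WT replicate 2 and likewise without Dp16 replicate 1. DESeq2 and limma-voom were not refitted with a library left out.

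No 2-copy ortholog passed the test in either direction. Of the 41 tested, 0 were called higher, where 0.47% of all genes were, and 0 were called lower, where 0.155% of all genes were. The adjusted p-values of edgeR ran from 0.0589 for Ube2g2 to 0.993 for Dip2a. At an unadjusted p below 0.05 by edgeR there were 13 members, 4 higher and 9 lower in Dp16, which is 31.7% of the 41 beside 24.6% of all genes. DESeq2 called 3 members higher (Itgb2, Trpm2 and Ubash3a), beside 5.82% of all genes, and 5 lower (Ube2g2, Pofut2, Sik1, U2af1 and Trappc10), beside 4.33%. Limma-voom called 0 higher, beside 1.28% of all genes, and 3 lower (Ube2g2, Pofut2 and Sik1), beside 0.77%. Without Dp16 replicate 2, edgeR called Ube2g2 (adjusted p = 0.0459) and Pofut2 (0.0497) lower and Ubash3a (0.0497) higher. That fit called 446 of 19715 genes, 354 of them higher. At an adjusted p below 0.10 edgeR put 2 members higher (Trpm2 and Ubash3a), beside 3.85% of all genes, and 4 lower (Ube2g2, Pofut2, Sik1 and U2af1), beside 2.9%. The 8 members called by DESeq2 are also the 8 whose groups did not overlap: every Dp16 library lay above every WT library for 3 members, beside 7.11% of all genes, and below every WT library for 5 members, beside 6.96%.

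Neither chromosome had a member called by edgeR, beside 0.47% of all genes called higher and 0.155% called lower. With so few members, the absence of calls does not show that the chromosomes are alike. On chromosome 10, 28 of 29 members were tested, 16 had a negative log2 fold change and the median was -0.04. On chromosome 17, 13 of 18 were tested, 10 had a negative log2 fold change and the median was -0.15. Over all 41 members, 26 log2 fold changes were negative, 63.4% beside 48.9% of all genes, and the median was -0.06 beside 0.01 over all genes tested. With each library left out in turn the median lay between -0.13 (without WT replicate 3) and -0.04 (without WT replicate 2) over all members, between -0.07 and -0.02 on chromosome 10, and between -0.21 (without WT replicate 4) and -0.04 (without WT replicate 2) on chromosome 17. The other protein-coding genes had a median of -0.02 on chromosome 10 (664 genes, 351 negative) and -0.04 on chromosome 17 (706 genes, 385 negative). The difference between the chromosomes was not tested, because the members were listed with results of these data known.

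The duplicated segment gives the scale of an added copy in the same libraries. Its 88 tested protein-coding genes had a median log2 fold change of 0.59, beside -0.06 for the 2-copy orthologs, where a fold of 1.5 is 0.58 on the log2 scale. Of those 88 genes 84 were higher in Dp16 and 28 were called. For 34 of the 41 members the upper end of the 95% confidence interval lay below a fold of 1.5, each interval taken by itself. The other 7 were Itgb2, Trpm2, Ubash3a, Lrrc3, Agpat3, Pde9a and Cbs. On the log2 scale 35 of the 41 estimates, 85.4%, lay within 0.5 of zero, beside 78.7% of all genes tested. Among the other protein-coding genes the share was 84.5% on chromosome 10 and 83.3% on chromosome 17.

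**Figure D1:**
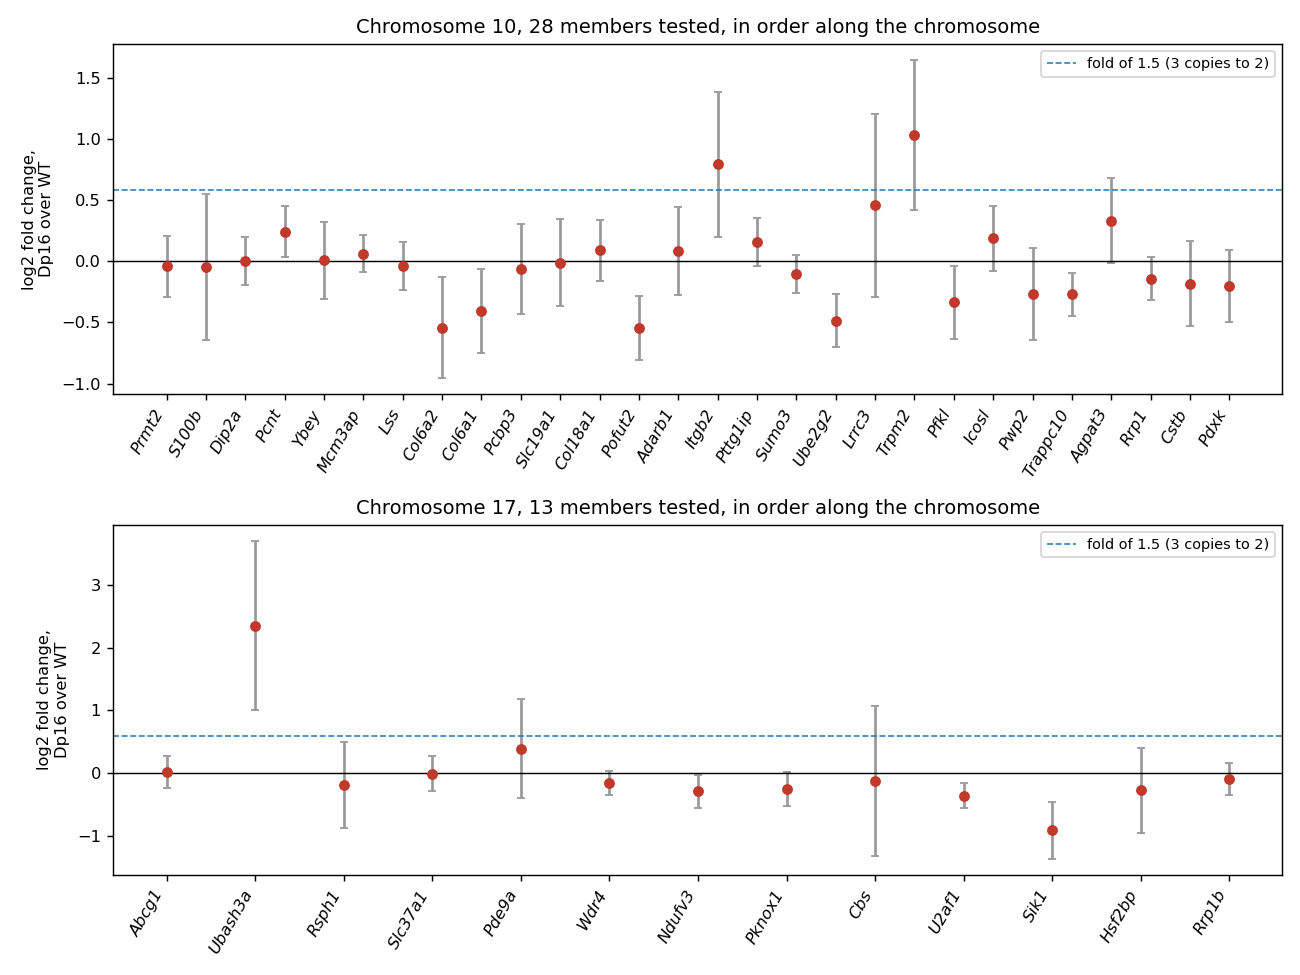
Log2 fold change of Dp16 over WT (vertical axis) for each tested member in its order along chromosome 10 (upper panel, 28 members) and chromosome 17 (lower panel, 13 members); points are edgeR estimates, bars are 95% confidence intervals and the dashed line marks a fold of 1.5. Estimates lie on both sides of zero along both blocks, with Trpm2 (1.03) and Ubash3a (2.35) the highest and Pofut2 (-0.55) and Sik1 (-0.91) the lowest on their chromosomes.

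**Figure D2:**
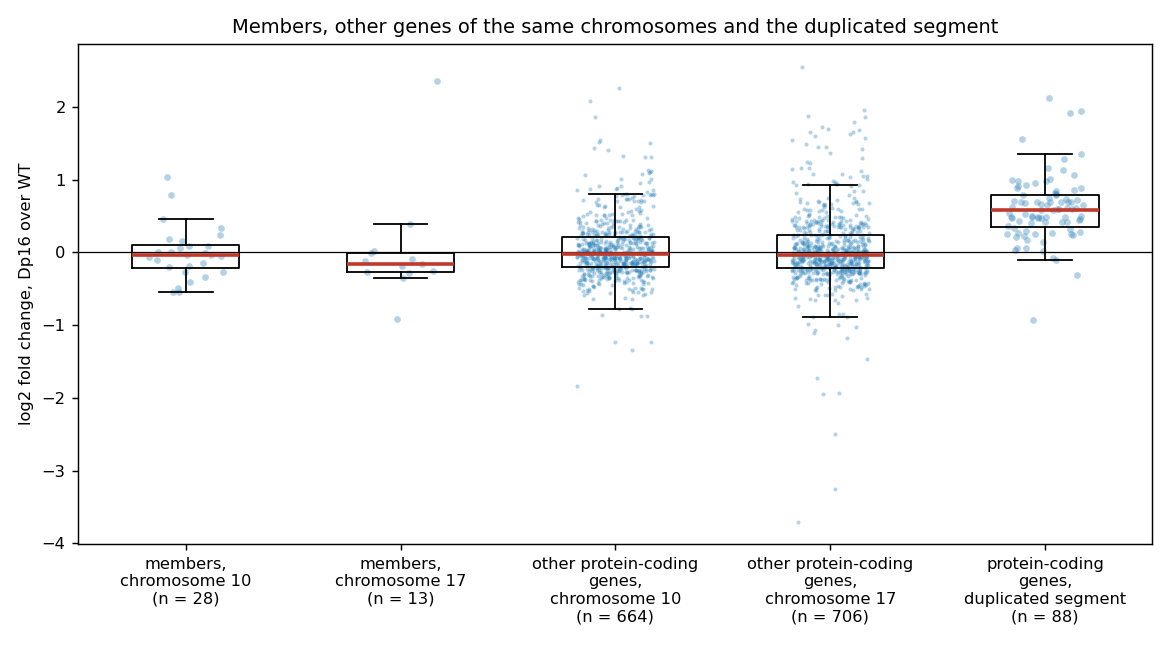
Log2 fold change of Dp16 over WT (vertical axis) for single genes (points) in the tested members, the other protein-coding genes of the same chromosomes and the protein-coding genes of the duplicated segment; boxes span the quartiles and red lines are medians. The medians are -0.04 and -0.15 for the members on chromosomes 10 and 17, and 0.59 for the duplicated segment.

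Sik1 had the lowest log2 fold change among the members. It encodes salt-inducible kinase 1, an AMPK-related kinase whose gene is induced by cAMP signalling and which phosphorylates the CRTC coactivators of CREB, keeping them in the cytoplasm. It had 13.7, 11.5, 16.5 and 9.23 CPM in Dp16 libraries 1 to 4, against 22.9, 24.1, 30.9 and 18.05 CPM in WT libraries 1 to 4. Every Dp16 library was below every WT library, and replicate 3 was the highest and replicate 4 the lowest in each group. The log2 fold change was -0.91 (SE 0.202), which missed the threshold in edgeR's quasi-likelihood test (adjusted p = 0.0683) and passed it in DESeq2 (0.00102) and limma-voom (0.0473).

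Of 23 tested genes around SIK and CREB (other SIK kinases, CRTC coactivators and CREB target genes), 0 were called by edgeR, 11 were lower at an unadjusted p below 0.05, none was higher at that level, and 19 had a negative log2 fold change, with a median of -0.14. Over all genes, 11.9% were lower at that level by edgeR and 48.9% were negative. DESeq2 called 9 of the 23 lower, beside 4.33% of all genes. The 3 with the smallest p were immediate-early genes, which cells switch on within minutes of stimulation. Nr4a2, a nuclear receptor, averaged 3.56 ± 0.848 CPM in Dp16 and 8.40 ± 2.55 CPM in WT (edgeR adjusted p = 0.0577). Fos, an AP-1 subunit, averaged 1.13 ± 0.640 CPM in Dp16 and 6.98 ± 4.58 CPM in WT (edgeR adjusted p = 0.0644). Dusp1, a MAP kinase phosphatase, averaged 2.77 ± 0.844 CPM in Dp16 and 10.6 ± 6.61 CPM in WT (edgeR adjusted p = 0.0766). The Fos and Dusp1 levels varied several-fold among the WT libraries themselves.

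Pofut2 and Ube2g2, on chromosome 10, act on proteins of the endoplasmic reticulum. Pofut2 is the O-fucosyltransferase that modifies thrombospondin type 1 repeats of secreted proteins. It had 15.6, 18.3, 13.9 and 18.5 CPM in Dp16 libraries, against 20.8, 25.8, 26.3 and 24.0 CPM in WT libraries, with no overlap. Its log2 fold change was -0.55 (SE 0.116, edgeR adjusted p = 0.0648, DESeq2 0.0022, limma-voom 0.0374). Among 13 tested genes of protein fucosylation, 1 passed the test: Fut8, the core N-glycan fucosyltransferase, rose to 10.6 ± 0.854 CPM in Dp16, against 6.98 ± 0.268 CPM in WT (log2 fold change 0.60, SE 0.0878, edgeR adjusted p = 0.0306). Of the other 12, 9 had a negative and 3 a positive log2 fold change and none was called, so Pofut2 and Fut8 lay on opposite sides of zero.

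Ube2g2 is the ubiquitin-conjugating enzyme of endoplasmic-reticulum-associated degradation (ERAD), in which misfolded proteins are exported to the proteasome. It had 13.98, 15.9, 13.8 and 14.7 CPM in Dp16 libraries, against 17.9, 22.7, 19.1 and 22.0 CPM in WT libraries. The Dp16 libraries lay close together and all below the WT libraries, with a log2 fold change of -0.48 (SE 0.0966) and the smallest edgeR adjusted p of any member, 0.0589 (DESeq2 0.00137, limma-voom 0.0374). Of its exon length 6.83% overlaps Gm49325, a protein-coding gene annotated on the same strand that also covers 9.45% of the neighbouring Sumo3, and reads in that overlap cannot be assigned to either. Of 9 tested ERAD genes 0 were called by edgeR and 8 had a negative log2 fold change, with a median of -0.25. DESeq2 called 2 of the 9 lower, beside 4.33% of all genes. The ERAD ubiquitin ligase Syvn1 averaged 20.1 ± 4.54 CPM in Dp16 and 36.6 ± 11.4 CPM in WT (log2 fold change -0.87, edgeR adjusted p = 0.0911).

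Sumo3, next to Ube2g2, encodes a small ubiquitin-like modifier. It averaged 32.98 ± 1.37 CPM in Dp16 and 35.5 ± 2.33 CPM in WT, a log2 fold change of -0.11 (edgeR adjusted p = 0.362). Of 15 tested genes of the SUMO pathway 0 were called by edgeR and 14 had a negative log2 fold change, though the median was only -0.07. DESeq2 called 2 of the 15 lower, beside 4.33% of all genes, and limma-voom called 1 lower, beside 0.77%. Senp2, a SUMO protease, had the smallest p, with 31.8 ± 1.42 CPM in Dp16 and 39.5 ± 2.36 CPM in WT (edgeR adjusted p = 0.0677).

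Trappc10 is a subunit of the TRAPPII complex, which tethers vesicles at the Golgi apparatus. It had 50.3, 53.2, 45.1 and 56.6 CPM in Dp16 libraries, against 60.3, 62.8, 61.3 and 62.7 CPM in WT libraries. The WT libraries lay within a narrow band above all Dp16 libraries, and the log2 fold change of -0.27 (SE 0.0779) was small beside that of Sik1 (edgeR adjusted p = 0.101, DESeq2 0.0437, limma-voom 0.068).

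The upstream sequences of Trappc10 and Col6a2 are shown because, of the 10 members with the smallest p, these have a RefSeq promoter window whose 250 bases before the start lie wholly outside the annotated gene. Capitals mark matches on either strand to an ETS-type motif, CCGGAAGT, or to a CCCTCC box, which reads GGAGGG when it lies on the other strand, or to the TATA box, TATAAA. Both are on the minus strand of chromosome 10 and are written 5′ to 3′ from RefSeq on GRCm38.p6, Trappc10 at chr10:78244646-78244895 and Col6a2 at chr10:76623631-76623880.
Trappc10: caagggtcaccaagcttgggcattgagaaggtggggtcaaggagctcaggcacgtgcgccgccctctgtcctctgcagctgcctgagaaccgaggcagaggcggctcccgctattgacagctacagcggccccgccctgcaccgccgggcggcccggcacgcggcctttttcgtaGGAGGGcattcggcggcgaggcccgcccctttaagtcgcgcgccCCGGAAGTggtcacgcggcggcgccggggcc
Col6a2: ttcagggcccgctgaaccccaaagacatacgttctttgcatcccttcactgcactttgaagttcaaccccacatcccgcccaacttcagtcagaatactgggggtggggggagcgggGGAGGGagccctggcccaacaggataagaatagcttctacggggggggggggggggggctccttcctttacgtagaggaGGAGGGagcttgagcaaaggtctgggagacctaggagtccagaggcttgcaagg
The Trappc10 window, 70.8% G or C, held 1 CCGGAAGT and 1 CCCTCC match and no TATAAA. The Col6a2 window, 59.2% G or C, held 2 CCCTCC matches and neither of the others. Over all 32851 windows of the table, 2.877% held CCGGAAGT, 35.24% CCCTCC and 12.37% TATAAA, counting the 250 bases before the start. A gene can have several windows: of 27025 genes, 3.23% held CCGGAAGT in any window, 37.74% CCCTCC and 14.33% TATAAA. Of the 34 members in the table (42 windows), 4 held CCGGAAGT (Mcm3ap, Pofut2, Pwp2 and Trappc10), 17 held CCCTCC and 3 held TATAAA (Ftcd, Prmt2 and Trpm2).

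U2af1, on chromosome 17, is the small subunit of the U2AF splicing factor and recognises the AG at the 3′ splice site. It had 8.60, 9.43, 8.05 and 7.96 CPM in Dp16 libraries, against 10.4, 11.1, 10.51 and 11.7 CPM in WT libraries, with no overlap. The log2 fold change was -0.36 (SE 0.0887, edgeR adjusted p = 0.0781, DESeq2 0.00981, limma-voom 0.0557). Of 8 tested genes of 3′ splice-site recognition 0 were called by edgeR and 6 had a negative log2 fold change. DESeq2 called 2 of the 8 lower, beside 4.33% of all genes, and limma-voom called 2 lower, beside 0.77%. The partner of U2af1, U2af2, averaged 22.2 ± 1.88 CPM in Dp16 and 27.9 ± 3.76 CPM in WT (edgeR adjusted p = 0.121). Srsf2, a splicing activator of the SR family, averaged 58.4 ± 5.73 CPM in Dp16 and 81.4 ± 6.28 CPM in WT (edgeR adjusted p = 0.0544), and Sf1, the branch-point binding protein, 42.0 ± 1.21 CPM in Dp16 and 52.1 ± 2.71 CPM in WT (edgeR adjusted p = 0.0609).

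**Figure D3:**
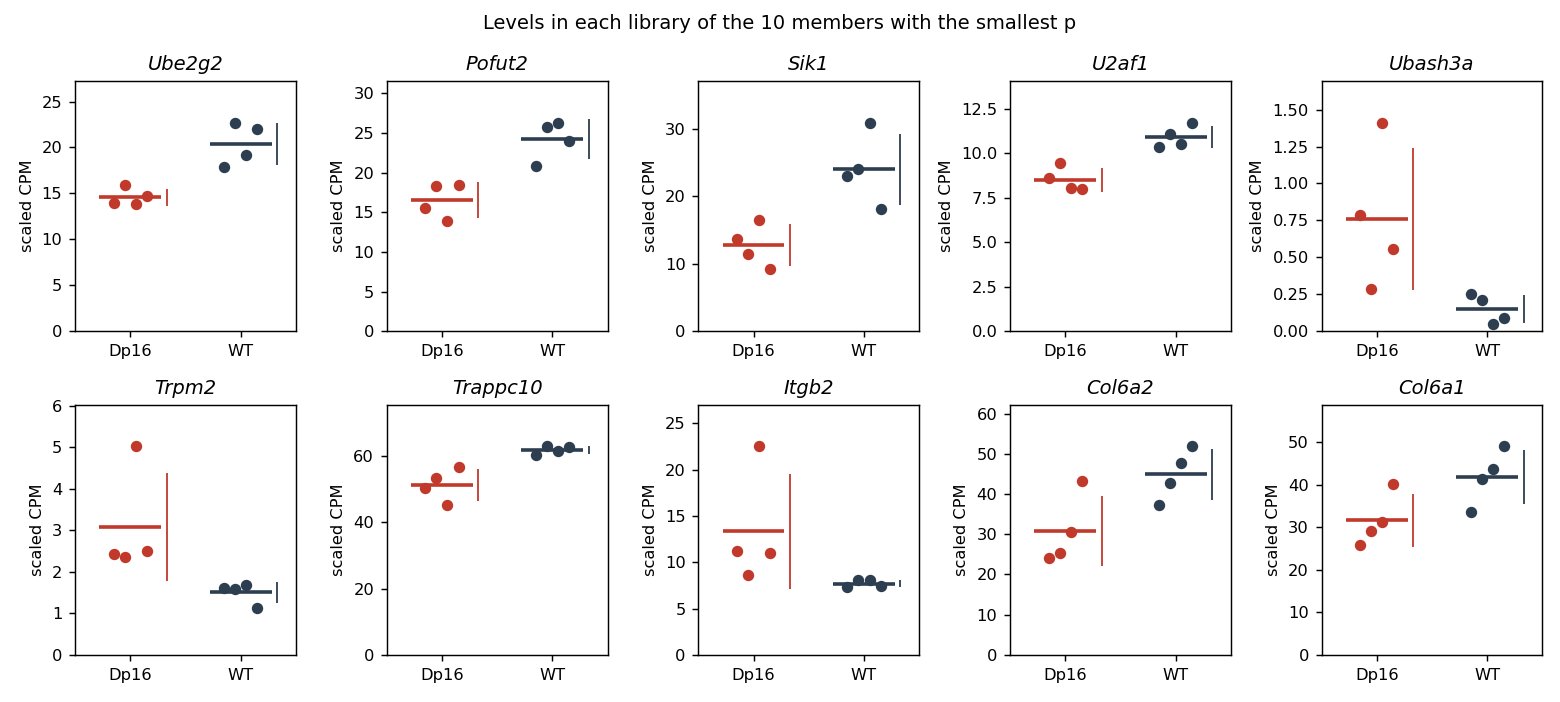
Scaled CPM (vertical axis, from 0) in each Dp16 and WT library for the 10 members with the smallest edgeR p; points are libraries, horizontal lines are means and vertical lines beside them are ± 1 SD (n = 4 each). The groups do not overlap for Ube2g2, Pofut2, Sik1, U2af1 and Trappc10, lower in Dp16, nor for Ubash3a, Trpm2 and Itgb2, higher in Dp16, and they overlap for Col6a1 and Col6a2.

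Col6a1 and Col6a2 encode the chains that, with Col6a3 from another chromosome, form the collagen VI heterotrimer, a filament around cells of connective tissue. Col6a2 had 24.2, 25.3, 30.6 and 43.1 CPM in Dp16 libraries, against 37.2, 42.8, 47.6 and 51.8 CPM in WT libraries. Col6a1 had 25.8, 29.1, 31.4 and 40.3 CPM in Dp16 libraries, against 33.7, 41.3, 43.7 and 49.1 CPM in WT libraries. Both chains rose from replicate 1 to replicate 4 in both genotypes, and Dp16 replicate 4 reached into the WT range for both. The log2 fold changes were -0.54 for Col6a2 (SE 0.184, edgeR adjusted p = 0.131) and -0.41 for Col6a1 (SE 0.152, edgeR adjusted p = 0.153). Col6a3 had 54.5, 51.9, 52.7 and 95.3 CPM in Dp16 libraries, against 90.0, 95.4, 91.1 and 112 CPM in WT libraries (log2 fold change -0.61, edgeR adjusted p = 0.118), again with Dp16 replicate 4 the highest of its group.

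Fibroblast markers were mixed. Of 10 tested, all detected, 7 had a negative log2 fold change, with a median of -0.38 and 0 called by edgeR. DESeq2 and limma-voom each called 1 of the 10, Col1a1, lower (DESeq2 adjusted p = 0.00406, limma-voom 0.0448), beside 4.33% and 0.77% of all genes. The negative estimates were those of other collagens (Col1a1 -0.69, Col3a1 -0.64, Col1a2 -0.41 and Col5a1 -0.36) with Lum, Fbln1 and, near zero, Dpt, while Dcn (0.02), Pdgfra (0.04) and Mfap5 (0.04) lay close to zero, and the summed level of the list was 512 to 824 CPM in Dp16 and 622 to 901 CPM in WT. Their part in the Col6a1 and Col6a2 differences was not tested. Col18a1, the basement-membrane collagen from which endostatin is cut, averaged 19.8 ± 1.14 CPM in Dp16 and 18.6 ± 2.73 CPM in WT (edgeR adjusted p = 0.634). Of 16 tested collagen VI and basement-membrane genes 0 were called, and 8 were higher and 8 lower.

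Itgb2, Trpm2 and Ubash3a were the members higher in Dp16 with no overlap between groups. Itgb2 is the beta chain (CD18) shared by the leukocyte integrins, which bind ICAM molecules. It had 11.3, 8.57, 22.5 and 11.0 CPM in Dp16 libraries, against 7.29, 8.04, 8.07 and 7.38 CPM in WT libraries. Dp16 replicate 3 stood far above the others, and the log2 fold change of 0.79 (SE 0.263, edgeR adjusted p = 0.126, DESeq2 0.0371, limma-voom 0.11) was 0.42 without that library (edgeR adjusted p = 0.151). Trpm2, a calcium-permeable channel opened by ADP-ribose and known in phagocytes and lymphocytes among other cells, had 2.43, 2.35, 5.02 and 2.51 CPM in Dp16 libraries, against 1.61, 1.59, 1.68 and 1.14 CPM in WT libraries. Its log2 fold change was 1.03 (SE 0.273, edgeR adjusted p = 0.085, DESeq2 0.00643, limma-voom 0.0726), and 0.69 without Dp16 replicate 3 (edgeR adjusted p = 0.129).

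Ubash3a, a negative regulator of T-cell receptor signalling, had the highest log2 fold change of the members at a low level. It had 0.786, 0.286, 1.41 and 0.558 CPM in Dp16 libraries, against 0.252, 0.208, 0.0496 and 0.0868 CPM in WT libraries. Dp16 replicate 2 lay only just above WT replicate 1, and the log2 fold change was 2.35 (SE 0.599, edgeR adjusted p = 0.0815, DESeq2 0.00194, limma-voom 0.0629), or 1.87 without Dp16 replicate 3 (edgeR adjusted p = 0.166). Icosl, the ligand of the T-cell costimulator ICOS, averaged 7.19 ± 1.02 CPM in Dp16 and 6.31 ± 0.455 CPM in WT (log2 fold change 0.19, edgeR adjusted p = 0.345). Its receptor Icos, on T cells, averaged 0.717 ± 0.448 CPM in Dp16 and 0.0967 ± 0.0388 CPM in WT (log2 fold change 2.89, edgeR adjusted p = 0.0573). Of 10 tested genes of the beta-2 integrin and ICOS group 0 were called by edgeR and 9 had a positive log2 fold change. Among the 9 was Itgal, the alpha chain of LFA-1, at 10.04 ± 3.07 CPM in Dp16 and 5.47 ± 1.17 CPM in WT (edgeR adjusted p = 0.0848). DESeq2 called 2 of the 10 higher, beside 5.82% of all genes.

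Markers of lymphocytes and myeloid cells are given beside Itgb2, Trpm2 and Ubash3a. All 13 lymphocyte markers were detected and all 13 estimates were above zero (median log2 fold change 1.88). By edgeR 1 was called, Klrd1 of natural killer cells, which rose to 2.16 ± 0.434 CPM in Dp16, against 0.825 ± 0.151 CPM in WT (edgeR adjusted p = 0.0331). DESeq2 called all 13 higher, beside 5.82% of all genes, and limma-voom called 4 higher, beside 1.28%. The mean of the 13 markers was highest in Dp16 replicate 3. Their summed level was 50.3 to 127 CPM in Dp16 and 31.7 to 40.2 CPM in WT. Of 10 myeloid markers 9 had an estimate above zero, the median was 0.17 on the log2 scale and 0 were called. The mean of the myeloid list, as log2 CPM minus the WT mean, was 1.15 in Dp16 replicate 3 and -0.27, -0.45 and -0.46 in Dp16 replicates 1, 2 and 4, so that library alone lay above the WT range, and the summed level was 205 to 323 CPM in Dp16 and 214 to 257 CPM in WT. The part of these cell types in the 3 members' differences was not tested.

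**Figure D4:**
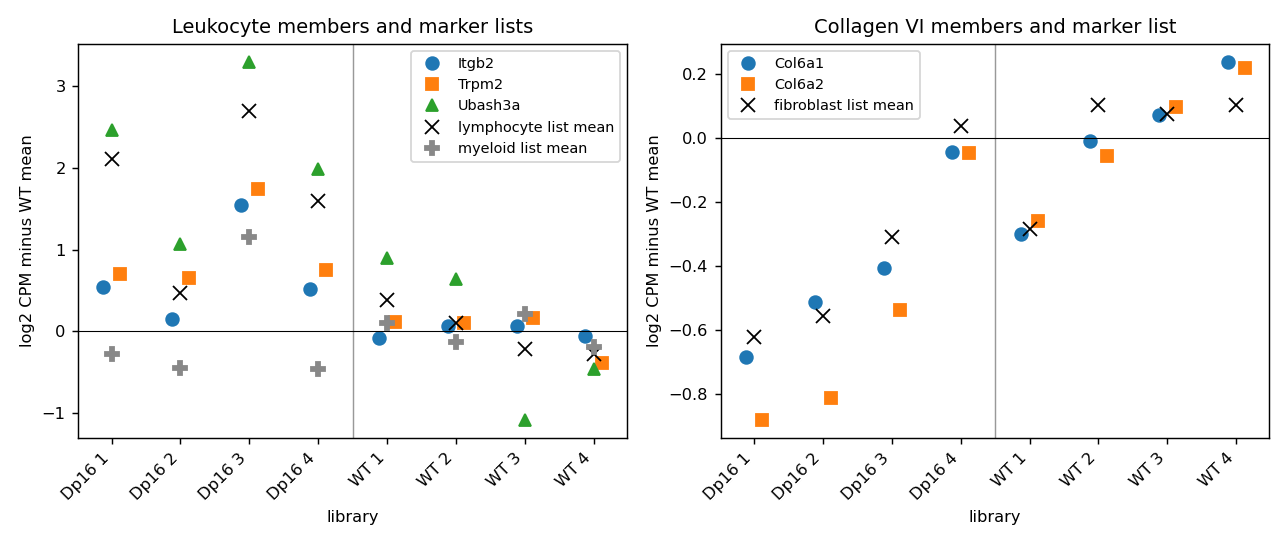
Log2 CPM minus the WT mean (vertical axis) in each library for Itgb2, Trpm2 and Ubash3a beside the mean of the lymphocyte and myeloid marker lists (left panel), and for Col6a1 and Col6a2 beside the mean of the fibroblast list (right panel). Dp16 replicate 3 is the highest library for Itgb2, Trpm2 and Ubash3a and for both the lymphocyte (2.70) and the myeloid list (1.15), and Dp16 replicate 4 is the highest Dp16 library for both collagen VI chains and the fibroblast list (0.04).

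Members of energy and lipid metabolism lay on both sides of zero. Pfkl, the liver-type phosphofructokinase of glycolysis, averaged 19.7 ± 2.64 CPM in Dp16 and 24.8 ± 3.83 CPM in WT (log2 fold change -0.33, edgeR adjusted p = 0.168). Ndufv3, a subunit of respiratory complex I, averaged 29.3 ± 4.42 CPM in Dp16 and 35.8 ± 3.10 CPM in WT (log2 fold change -0.29, edgeR adjusted p = 0.17). Of 17 tested glycolysis genes 0 were called by edgeR and 15 had a negative log2 fold change, with a median of -0.33. DESeq2 called 4 of the 17 lower, beside 4.33% of all genes, and 2 higher, beside 5.82%. The 2 with a positive estimate, named after their values were seen, were Pfkfb3 and Pfkfb4. Pfkfb3 averaged 8.83 ± 3.52 CPM in Dp16 and 5.24 ± 0.510 CPM in WT (edgeR adjusted p = 0.112, DESeq2 0.0297). Pfkfb4 averaged 7.15 ± 2.96 CPM in Dp16 and 4.05 ± 0.667 CPM in WT (edgeR adjusted p = 0.122, DESeq2 0.0351). Hexokinase Hk2 averaged 23.7 ± 3.81 CPM in Dp16 and 41.7 ± 9.97 CPM in WT (edgeR adjusted p = 0.0667), and Pfkfb2, which makes the activator of phosphofructokinase, 31.8 ± 3.03 CPM in Dp16 and 40.9 ± 1.93 CPM in WT (edgeR adjusted p = 0.0709).

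Agpat3, an acyltransferase of phospholipid synthesis, was among the members with a positive estimate, at 45.9 ± 9.75 CPM in Dp16 and 36.4 ± 4.87 CPM in WT (log2 fold change 0.33, edgeR adjusted p = 0.218). The sterol genes among the members lay near zero: Lss, lanosterol synthase, averaged 15.4 ± 1.54 CPM in Dp16 and 15.8 ± 0.651 CPM in WT, and Abcg1, a cholesterol exporter, 25.6 ± 4.52 CPM in Dp16 and 25.3 ± 0.909 CPM in WT. Of 21 tested genes of sterol synthesis and efflux 0 were called and 17 had a negative log2 fold change (median -0.23).

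Cbs, the first enzyme of transsulfuration and the cause of homocystinuria when lost in people, was close to undetected. It had 0.119, 0.0953, 0.167 and 0.0517 CPM in Dp16 libraries, against 0.171, 0.187, 0.0496 and 0.0694 CPM in WT libraries, 95 reads in all. The groups overlapped entirely and the 95% confidence bounds on log2 fold change were -1.32 and 1.07, so neither a fold of 1.5 up nor down was detectable at this depth. Slc19a1, the reduced folate carrier, averaged 2.93 ± 0.477 CPM in Dp16 and 2.96 ± 0.345 CPM in WT. Pdxk, which makes the pyridoxal phosphate that Cbs and many other enzymes need, had 62.8, 82.0, 62.3 and 65.0 CPM in Dp16 libraries, against 67.2, 83.1, 68.9 and 93.7 CPM in WT libraries (log2 fold change -0.20, edgeR adjusted p = 0.363). Of its exon length 39.0% overlaps the antisense gene 4921516A02Rik, and the strand setting of the counting is not given, so its level is uncertain. Of 21 tested genes of one-carbon metabolism and transsulfuration 0 were called, 9 with a positive and 12 with a negative log2 fold change.

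Several members make ribosomes or modify RNA. Rrp1 and Rrp1b, nucleolar proteins of ribosomal RNA processing, averaged 34.1 ± 2.21 and 6.26 ± 0.357 CPM in Dp16, against 37.6 ± 2.82 and 6.68 ± 0.887 CPM in WT. Pwp2, a component of the small-subunit processome, averaged 8.49 ± 1.05 CPM in Dp16 and 10.2 ± 2.36 CPM in WT, and Wdr4, the partner of the tRNA guanine methyltransferase, 8.07 ± 0.610 CPM in Dp16 and 8.97 ± 0.289 CPM in WT. Antisense transcripts overlap 10.8% of the exon length of Wdr4, so its level is uncertain without the strand setting. All 4 had negative log2 fold changes, -0.14, -0.09, -0.27 and -0.15 in that order, with edgeR adjusted p-values of 0.287 to 0.634. Of 21 tested genes of ribosome biogenesis 0 were called, 20 had a negative log2 fold change (median -0.28) and 12 were lower at an unadjusted p below 0.05 by edgeR, beside 11.9% of all genes. DESeq2 called 2 of them lower, beside 4.33%, among them Nop56, a box C/D snoRNP protein, at 12.6 ± 1.36 CPM in Dp16 and 18.9 ± 3.70 CPM in WT (edgeR adjusted p = 0.0781). Adarb1, the RNA-editing enzyme ADAR2, averaged 4.55 ± 0.915 CPM in Dp16 and 4.30 ± 0.385 CPM in WT.

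Pcnt, the scaffold protein pericentrin of the centrosome, averaged 33.7 ± 4.22 CPM in Dp16 and 28.5 ± 1.35 CPM in WT (log2 fold change 0.24, edgeR adjusted p = 0.161). Its binding partner at the centrosome, Cdk5rap2, averaged 13.8 ± 0.819 CPM in Dp16 and 11.8 ± 0.947 CPM in WT (edgeR adjusted p = 0.153), and of 8 tested centrosome genes 0 were called. Mcm3ap, a scaffold of messenger RNA export, averaged 26.1 ± 0.684 CPM in Dp16 and 25.1 ± 1.54 CPM in WT (edgeR adjusted p = 0.597). Pknox1, a homeodomain factor that partners with PBX proteins, averaged 9.29 ± 1.36 CPM in Dp16 and 11.1 ± 0.937 CPM in WT (log2 fold change -0.26, edgeR adjusted p = 0.219).

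S100b, a calcium-binding protein of glial and Schwann cells, had 0.658, 0.537, 0.362 and 0.806 CPM in Dp16 libraries, against 0.544, 0.593, 0.575 and 0.720 CPM in WT libraries. The WT range lay wholly inside the Dp16 range (edgeR adjusted p = 0.934). All 9 Schwann cell markers were detected, with a summed level of 194 to 231 CPM in Dp16 and 175 to 249 CPM in WT, a median log2 fold change of 0.05 and 0 called. Pde9a, a cGMP phosphodiesterase, averaged 1.71 ± 0.363 CPM in Dp16 and 1.30 ± 0.731 CPM in WT (edgeR adjusted p = 0.507), and Hsf2bp, a factor of meiotic recombination, 0.378 ± 0.141 CPM in Dp16 and 0.456 ± 0.0605 CPM in WT (edgeR adjusted p = 0.595). Lrrc3, a leucine-rich repeat protein, averaged 6.46 ± 2.61 CPM in Dp16 and 4.70 ± 1.69 CPM in WT (edgeR adjusted p = 0.41).

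Per kilobase of exon, the order of the members was led by Cstb, at a mean of 54.2 TPM over the 8 libraries, then Pttg1ip at 28.02, Pdxk at 19.9 and Rrp1 at 15.7 TPM. Cstb, an intracellular inhibitor of cathepsins whose loss causes progressive myoclonus epilepsy in people, had 16.6, 24.5, 22.5 and 19.7 CPM in Dp16 libraries, against 20.0, 30.2, 21.7 and 22.7 CPM in WT libraries. In both groups replicate 2 was the highest and replicate 1 the lowest, and the groups overlapped (log2 fold change -0.18, edgeR adjusted p = 0.48). Pttg1ip, the binding factor of securin, had 82.9, 73.8, 85.7 and 69.0 CPM in Dp16 libraries, against 74.3, 65.2, 72.4 and 67.7 CPM in WT libraries (log2 fold change 0.15, edgeR adjusted p = 0.297). Pdxk and Rrp1 differed by less than the SD of Pdxk between WT libraries (5.37 TPM). Rrp1, Ndufv3 (14.9 TPM) and Sumo3 (13.7 TPM) lay closer than their SDs between WT libraries (2.69, 2.61 and 2.16 TPM). Their SDs between Dp16 libraries were smaller (1.21, 1.94 and 0.743 TPM). With the longest transcript in place of the union of exons, Pdxk (17.8 TPM) came after Rrp1 (22.5 TPM) and Ndufv3 (19.96 TPM), and 9 of the 10 highest were the same.

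The estimates of 13 members (log2 fold change -0.18 to 0.09) changed sign in at least 1 alternative processing. They include S100b, Cbs, Lss, Abcg1, Slc19a1, Adarb1 and Col18a1 named above. The other 6 were the arginine methyltransferase Prmt2, Dip2a, the endoribonuclease Ybey, the RNA-binding protein Pcbp3, the radial spoke protein Rsph1 and the sugar-phosphate transporter Slc37a1. Dip2a averaged 15.3 ± 1.12 CPM in Dp16 and 15.3 ± 1.18 CPM in WT, Slc37a1 10.9 ± 0.338 CPM in Dp16 and 11.0 ± 1.91 CPM in WT, and Prmt2 7.08 ± 0.514 CPM in Dp16 and 7.29 ± 0.894 CPM in WT. Ybey, with 10.9% of its exon length under a gene of the opposite strand, averaged 3.49 ± 0.569 CPM in Dp16 and 3.47 ± 0.286 CPM in WT, Pcbp3 1.45 ± 0.176 CPM in Dp16 and 1.52 ± 0.181 CPM in WT, and Rsph1 0.326 ± 0.0523 CPM in Dp16 and 0.371 ± 0.136 CPM in WT.

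The 6 members left untested had almost no reads. The trefoil peptides Tff1 and Tff2, Umodl1 and the folate enzyme Ftcd had 0 reads in all 8 libraries, where a count of 0 allows up to 3 reads, or 0.0260 to 0.0312 CPM by library, for counting error only. Tff3, the trefoil peptide of mucous epithelia, had 4 reads, all in Dp16 replicate 1, and the serine protease Tmprss3 had 1 read, in WT replicate 4. So 5 of the 18 members on chromosome 17 and 1 of the 29 on chromosome 10 had too few reads to be tested. Of 8 listed mucin-related genes 6 were tested and 0 called, with Fcgbp, a mucin-like protein, at 1.13 ± 0.303 CPM in Dp16 and 0.662 ± 0.0592 CPM in WT (edgeR adjusted p = 0.103).

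Over the 13 lists of pathway partners together, 188 of 194 genes were tested, and 1 was called higher (Fut8) and 0 lower by edgeR, with 62 at an unadjusted p below 0.05, where 24.6% of all genes were. DESeq2 called 7 higher and 23 lower, where 5.82% and 4.33% of all genes were. Within the blocks between the outermost members, 4 further protein-coding genes were tested and none was called.

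**Figure D5:**
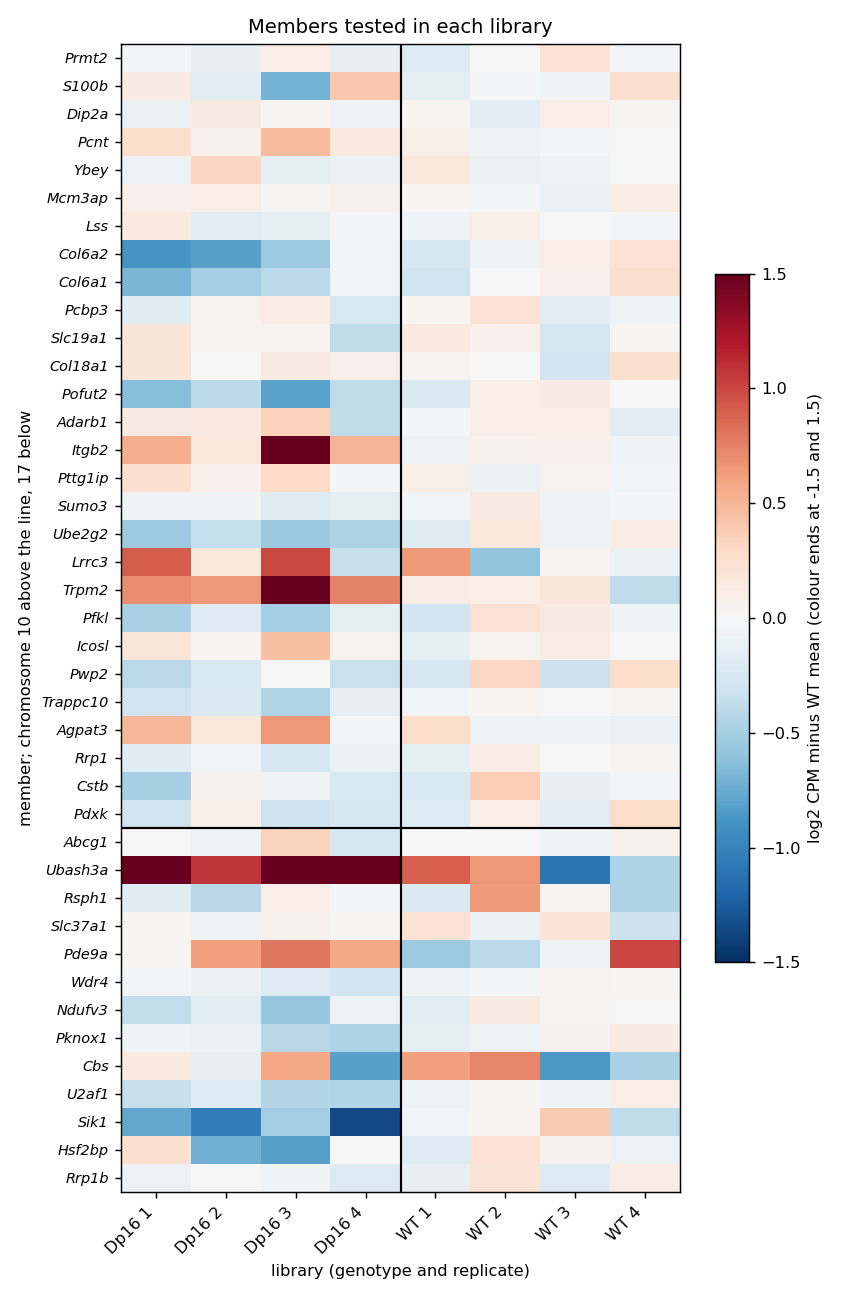
Log2 CPM minus the WT mean (colour, cut at -1.5 and 1.5) of the 41 tested members (rows, chromosome 10 above the line and 17 below, in chromosomal order) in the 4 Dp16 libraries and the 4 WT libraries (columns). Most rows are pale in all 8 columns; Trpm2, Itgb2 and Ubash3a are red and Sik1 is blue in Dp16, with Dp16 replicate 3 the strongest for the first 3.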

How the data were processed

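Total RNA was sequenced from ribosomal-RNA-depleted, stranded libraries, per the labels' protocols. The authors deposited a table of raw read counts by Ensembl gene for each library. GRCm38 and the tools HTSeq, STAR, DESeq2 and FastQC stand in the submitters' processing notes, without versions. Strand setting and annotation release: not given in the sources used here. Each table held 54838 genes and 5 rows naming no gene (58.1% to 65.4% of reads), left out of library sizes and tests. Names and coordinates came from GENCODE M21 (54723 genes matched, 115 did not).

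Counts were tested in R 4.3.3 with edgeR 4.0.16 (filterByExpr, TMM, glmQLFit and glmQLFTest, genotype only, two-sided) and adjusted over all 19358 genes. Log2 CPM used a prior count of 2. No pair of libraries agreed within sampling noise. TPM, from the union of exons, was used only to order genes. Alternatives were DESeq2 1.42.0, limma-voom (limma 3.58.1, quality weights), RLE factors, TMM without the 1% most abundant genes, no filter, CPM of at least 1 in 4 libraries, an adjusted p below 0.10, a replicate block and each library left out.

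The members and lists were chosen with earlier results of these data known. Named in full were the 10 members with the smallest p, the 3 with the smallest p on each chromosome, the 3 highest per kilobase, and Sik1, Pofut2, Cbs, Itgb2, Col6a1, Col6a2, S100b and Cstb, with up to 3 genes of each list by p.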

Additional observations from a re-analysis of the deposited data

Results flagged for a closer look

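In 6 of the 82 groups of 4 libraries examined (41 members in each genotype), the highest or lowest library lay far from the other 3, by a test that chance passes in about 5% of groups. Trpm2 was flagged in both genotypes, for 5.02 CPM in Dp16 replicate 3, the highest of its group, and for 1.14 CPM in WT replicate 4, the lowest of its group. Ybey stood at 4.34 CPM in Dp16 replicate 2, and Pdxk at 82.0 CPM in the same library, each the highest of the Dp16 libraries. Agpat3 stood at 43.7 CPM in WT replicate 1 and Sumo3 at 39.0 CPM in WT replicate 2, each the highest of the WT libraries.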

How the results depend on the processing

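Over all alternatives edgeR's count of 0 members called higher and 0 lower became 3 and 5 with DESeq2, 0 and 3 with limma-voom, 0 and 1 (Sik1) with no filter, and 2 and 4 at an adjusted p below 0.10; with 1 library left out it was 0 to 1 higher and 0 to 2 lower. With the replicate number as a block it was 0 higher and 5 lower (Sik1, Ube2g2, Pofut2, Col6a1 and Col6a2). That fit called 776 of 19358 genes, 360 of them higher. Libraries of the same number deviated together with correlations of 0.191, 0.129, 0.0777 and 0.105 over genes. Libraries of different number had correlations from -0.22 to 0.14. Not every library correlated best with its own number, and the numbers were not taken to pair the libraries. RLE factors and TMM without the most abundant genes left both counts at 0. The members' median log2 fold change of -0.06 was -0.022 with CPM of at least 1 in 4 libraries and -0.13 to -0.043 with 1 library left out (-0.067 to -0.020 on chromosome 10, -0.21 to -0.043 on chromosome 17). Partner genes called, 1 higher and 0 lower, became 2 and 4 with no filter, 7 and 23 with DESeq2, 1 and 4 with limma-voom, 2 and 19 with the block, 3 and 18 at an adjusted p below 0.10, and 1 lower with CPM of at least 1; leaving out 1 library gave 0 to 3 higher and 0 to 2 lower. Near zero, S100b ran from -0.24 to 0.13 when a library was dropped, positive in the absence of WT replicate 4 (0.047) or Dp16 replicate 3 (0.13). Cbs ran from -0.41 to 0.17, positive in the absence of WT replicate 1 (0.090), WT replicate 2 (0.17) or Dp16 replicate 4 (0.085). Fewer samples enter the fits that leave a library out; the cause of the other changes was not tested. Over all genes, the calls numbered 121 by edgeR, 1991 with DESeq2, 396 with limma-voom and 776 with the block. With no filter they numbered 223 of 33168 genes, 158 of them higher. At under 1 CPM (Cbs, S100b, Ubash3a, Hsf2bp and Rsph1) depth limits the precision.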

Other observations

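Genes that lie inside the blocks but are not on the ortholog list gave a mixed picture. Of 10 such genes tested, 4 protein-coding and 6 non-coding, 5 had a positive log2 fold change and 0 were called by edgeR, with 2 at an unadjusted p below 0.05. D10Jhu81e, next to Pwp2 on chromosome 10, averaged 24.0 ± 1.49 CPM in Dp16 and 27.8 ± 1.56 CPM in WT, with every Dp16 library below every WT library (log2 fold change -0.21, edgeR adjusted p = 0.137). Tspear, downstream of Ube2g2, averaged 0.889 ± 0.0621 CPM in Dp16 and 0.515 ± 0.290 CPM in WT (log2 fold change 0.79, edgeR adjusted p = 0.204). Gm38099, next to Ndufv3 on chromosome 17, averaged 0.763 ± 0.0683 CPM in Dp16 and 0.487 ± 0.176 CPM in WT, with every Dp16 library above every WT library (log2 fold change 0.65, edgeR adjusted p = 0.197). Over the whole table, 64.0% of the 4933 tested non-coding genes were higher in Dp16 (median log2 fold change 0.16), beside a median of -0.02 for protein-coding genes. The higher share of reads in no feature in Dp16 libraries stands beside this, and its part was not tested.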
